A study of Homo sapiens with 4 samples.

Results

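Broad PML/RARA peaks are the stretches of at least 1000 bases on chromosomes 1 to 22 in a CUT&Tag peak list of NB4 cells, and they were chosen by peak width alone. They number 687 of the 45085 PML/RARA peaks on those chromosomes (1.52%) and hold 0.817 of the 14.3 Mb that all these peaks cover (5.71%). NB4 is an established acute promyelocytic leukemia line carrying the PML and RARA fusion. The series holds 4 NB4 libraries, 1 with an antibody labelled PPARα, 1 with an antibody labelled PML/RARA, and an IgG control library named for each. Beyond the antibody, the labels give no drug, genotype change or time for any of them, and the controls are NB4 cells too. One peak list per antibody was used, so there is no replicate, and nothing below measures variation between libraries or cultures. IgG signal was not used here, read depth is unknown, and intervals cover counting error over peaks only.

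PML/RARA joins the PML protein, a scaffold of nuclear bodies, to the retinoic acid receptor RARA, which binds DNA with RXR partners at repeats of a short half-site. The fusion is known for recruiting corepressors and holding myeloid cells at the promyelocyte stage. PPARα is a fatty acid-sensing nuclear receptor that also pairs with RXR, mostly on direct repeats with a single base between the half-sites. The labels do not say which stretch of the fusion the antibody sees, and signal from normal PML or RARA cannot be told apart from that of PML/RARA.

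Sequences upstream of 8 start sites show the kind of promoter DNA that broad peaks cover. Each run gives the 250 bases before an annotated start site, 5′ to 3′ on the gene's strand, from the RefSeq promoter table of GRCh38.p14. Capitals mark the nuclear receptor half-sites AGGTCA and GGGTCA, the GC box GGGCGG and the ETS-type motif CCGGAAG, on either strand. MBOAT7 and TSEN34 start in opposite directions in the widest broad peak at coding genes, and ESRRA lies in the broad peak of highest −log10 q. EGR1 is shown as a promoter with none of the 4 motifs, and SRCAP as the promoter with a direct repeat. KAT6B and UCP2 lie under strong PPARα peaks, and ICAM1 is the retinoic acid response gene among them.
MBOAT7, chr19:54189581-54189830, minus strand: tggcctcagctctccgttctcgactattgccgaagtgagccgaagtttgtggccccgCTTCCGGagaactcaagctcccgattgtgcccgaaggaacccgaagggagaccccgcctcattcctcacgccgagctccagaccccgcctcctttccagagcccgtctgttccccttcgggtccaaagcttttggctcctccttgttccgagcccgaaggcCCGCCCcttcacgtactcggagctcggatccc
TSEN34, chr19:54190094-54190343, plus strand: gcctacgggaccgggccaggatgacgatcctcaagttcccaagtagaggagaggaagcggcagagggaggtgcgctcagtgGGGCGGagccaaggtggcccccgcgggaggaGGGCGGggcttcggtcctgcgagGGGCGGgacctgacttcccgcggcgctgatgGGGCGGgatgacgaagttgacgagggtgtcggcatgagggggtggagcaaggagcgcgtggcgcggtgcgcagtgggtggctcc
ESRRA, chr11:64305274-64305523, plus strand: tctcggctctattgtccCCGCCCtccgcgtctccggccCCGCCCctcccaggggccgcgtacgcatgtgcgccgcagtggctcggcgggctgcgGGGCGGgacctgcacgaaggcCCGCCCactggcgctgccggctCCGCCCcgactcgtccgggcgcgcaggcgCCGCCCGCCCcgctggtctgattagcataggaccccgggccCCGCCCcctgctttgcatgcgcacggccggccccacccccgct
EGR1, chr5:138465229-138465478, plus strand: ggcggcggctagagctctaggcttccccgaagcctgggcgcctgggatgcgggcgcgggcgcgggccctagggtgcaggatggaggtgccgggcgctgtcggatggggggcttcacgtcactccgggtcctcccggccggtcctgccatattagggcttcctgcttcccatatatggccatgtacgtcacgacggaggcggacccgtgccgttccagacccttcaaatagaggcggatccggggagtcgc
SRCAP, chr16:30698921-30699170, plus strand: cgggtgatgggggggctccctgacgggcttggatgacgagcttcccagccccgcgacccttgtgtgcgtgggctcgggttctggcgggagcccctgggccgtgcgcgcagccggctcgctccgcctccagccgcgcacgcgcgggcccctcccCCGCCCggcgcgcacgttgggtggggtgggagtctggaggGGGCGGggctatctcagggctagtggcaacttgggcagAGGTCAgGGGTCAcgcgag
ICAM1, chr19:10270870-10271119, plus strand: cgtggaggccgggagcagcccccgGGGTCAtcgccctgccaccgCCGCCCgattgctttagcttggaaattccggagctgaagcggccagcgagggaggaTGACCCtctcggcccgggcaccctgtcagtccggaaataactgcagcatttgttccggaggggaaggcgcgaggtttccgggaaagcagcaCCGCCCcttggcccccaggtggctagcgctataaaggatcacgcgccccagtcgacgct
KAT6B, chr10:74826350-74826599, plus strand: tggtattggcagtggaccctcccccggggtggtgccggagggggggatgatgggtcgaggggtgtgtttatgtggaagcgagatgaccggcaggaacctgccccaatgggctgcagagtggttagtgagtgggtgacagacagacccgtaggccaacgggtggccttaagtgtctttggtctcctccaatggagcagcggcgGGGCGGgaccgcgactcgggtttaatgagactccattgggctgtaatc
UCP2, chr11:73982844-73983093, minus strand: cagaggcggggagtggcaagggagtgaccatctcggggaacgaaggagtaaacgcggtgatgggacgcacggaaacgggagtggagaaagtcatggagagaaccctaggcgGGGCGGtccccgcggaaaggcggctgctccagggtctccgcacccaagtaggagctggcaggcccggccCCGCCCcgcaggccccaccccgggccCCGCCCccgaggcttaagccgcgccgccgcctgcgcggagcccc

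The ESRRA run holds 8 GC boxes, 2 of which overlap, and 35 CG dinucleotides, against 13 in the KAT6B run. In SRCAP, the gene of a chromatin remodelling ATPase, an AGGTCA and a GGGTCA stand in direct repeat with 1 base between them, beginning 19 bases before the start site. All 250 of these bases lie under a PPARα peak of fold 9.91. Likewise all 250 bases lie under PPARα peaks at MBOAT7, TSEN34, ESRRA and KAT6B. At EGR1 and ICAM1 the PPARα peak lies further upstream and covers 0 of the 250 bases.

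Width was the measure that chose the peaks, so the following values only describe them. The median width was 1134 bases (quartiles 1059 and 1263), and 47 peaks reached 1500 bases. Only 2 reached 2000 bases. Fold enrichment, the authors' linear ratio over background at each summit, had a median of 14.2 (range 4.11 to 29.7), against 7.28 in the 44398 narrower peaks. Their median −log10 q was 102 against 11.5. Median fold climbed with width up to 750 bases, from 5.34 under 250 bases to 10.1 at 250 to 499 bases and 15.2 at 500 to 749 bases, but no further beyond 1000 bases. Peaks of 750 to 999 bases had a median fold of 15.5, those of 1000 to 1249 bases 14.8, and those of 1500 bases and over 11.3.

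The cut at 1000 bases falls within a continuum. The 65 peaks of 1000 to 1019 bases had a median fold of 14.3, and the 77 peaks of 980 to 999 bases one of 14.9. In these classes 78.5% and 72.7% overlapped PPARα, and 60.0% and 64.9% had a summit near a coding gene end. Just inside the limit lay peaks of 1000 bases at EXOSC6, an RNA exosome subunit gene (fold 17.5), at TOP3A and SMCR8 (20.3) and at SLC7A6, an amino acid transporter gene (5.24). MAP2K3 (10.7) and ANKRD12 (16.1) followed at 1001 bases. Just outside lay CSKMT (fold 15) and SBNO2 (6.23) at 999 bases, UBE2K (17) and TRIM27 (9.77) at 998 bases, and SLC17A9 (11.2) at 997 bases.

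Broad peaks were found mostly at the starts of protein-coding genes. Of their summits, 66.8% (459 of 687, 95% Clopper-Pearson interval 63.2 to 70.3) lay within 1 kb of an annotated end of such a gene, where the share over all PML/RARA peaks was 26.8% and that of narrower peaks 26.2%. The rest were inside coding genes (152 peaks, 22.1%), inside other annotated genes (24, 3.49%) or between genes (52, 7.57%). Among narrower peaks those shares were 42.6%, 8.43% and 22.8%. Peaks of 750 to 999 bases already had the location of the broad ones, with 66.5% (64.3 to 68.6) near gene ends. Whether these shares differ beyond the spread between libraries was not tested, as there is 1 list.

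Start sites were taken from the promoter table, which covers 15101 of the 19126 coding genes on chromosomes 1 to 22. Chromosome 8 was not used for them, which leaves 665 broad peaks. Within 1 kb of a start site lay 68.4% of their summits (64.7 to 71.9), against 23.4% over all PML/RARA peaks. A start site lay inside 442 broad peaks (66.5%, 62.7 to 70.0), inside 62.0% (59.7 to 64.3) of peaks of 750 to 999 bases and inside 16.5% of narrower peaks. A wide peak meets more start sites by its length, an effect that shares based on the summit do not carry. Of the 223 broad peaks without a coding start site, 21 held the start of a long noncoding RNA gene and 202 held neither.

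**Figure D1:**
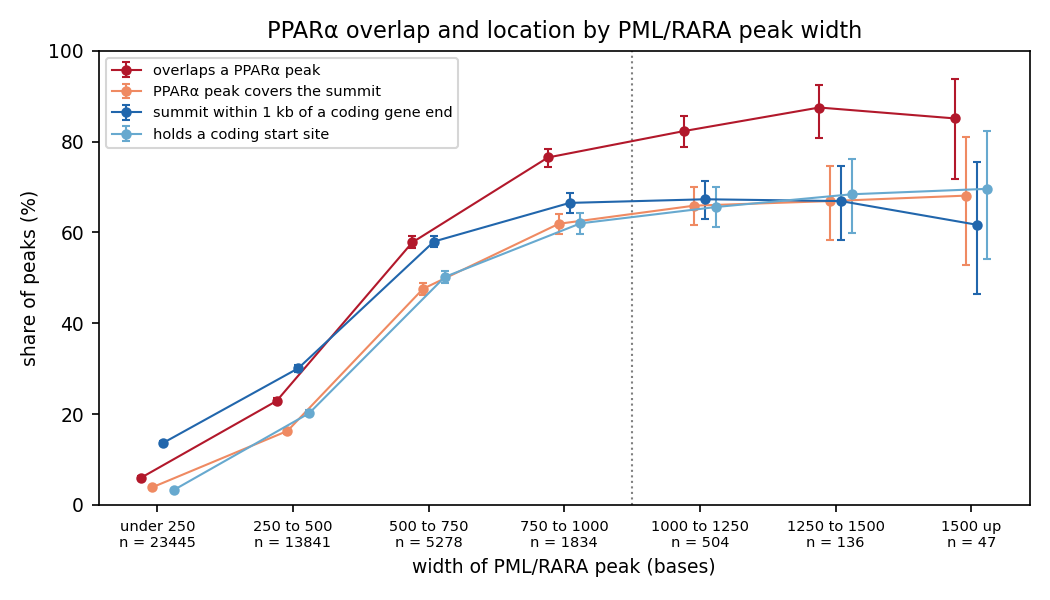
Share of PML/RARA peaks (vertical axis, %) that overlap a PPARα peak, have a PPARα peak over the summit, have a summit within 1 kb of a coding gene end, or hold a coding start site, by peak width (horizontal axis, bases). Each width class starts at its first number and stays below its second; bars are 95% Clopper-Pearson intervals over peaks, the dotted line marks 1000 bases, and start sites leave out chromosome 8; the shares climb steeply up to 750 to 999 bases (76.5% for PPARα overlap) and are nearly level beyond (82.3%, 87.5% and 85.1%).

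Broad peaks that hold a start site reach to both sides of it by definition, and their median reach was similar upstream and downstream. In the 378 peaks holding start sites of a single coding gene, measured at the start site nearest the summit, the peak reached a median of 594 bases upstream (quartiles 333 and 876) and 568 bases downstream (291 and 794). The PML/RARA summit lay a median of 102 bases upstream (194 upstream to 14.8 downstream between quartiles), and only 28.0% of summits lay downstream. PPARα summits in 331 of these peaks had a median 96.0 bases upstream with wider quartiles, from 339 bases upstream to 201 downstream, and 43.8% lay downstream. The nearest start site was picked by the PML/RARA summit, so the narrower spread of that summit is partly set by this choice.

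**Figure D2:**
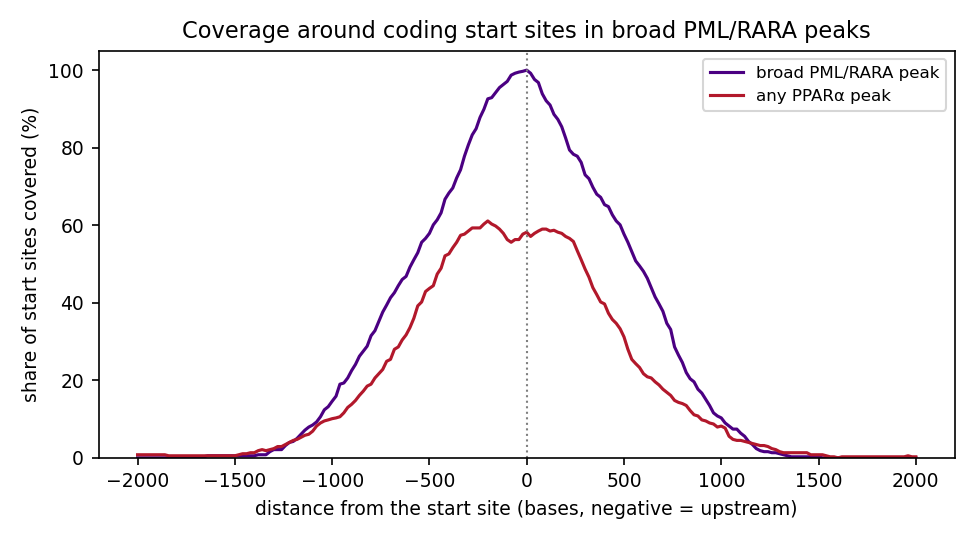
Share of 378 coding start sites in single-gene broad peaks (vertical axis, %) covered by the broad PML/RARA peak or by any PPARα peak, by distance from the start site (horizontal axis, bases, negative is upstream). PML/RARA is 100% at the start site by construction; PPARα covers 58.2% there and 61.1% at 200 bases upstream, and at 500 bases the PPARα share is 43.7% upstream and 31.2% downstream.

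Divergent gene pairs, in which 2 genes start back to back and share a promoter, lay in 51 of the 665 broad peaks (7.67%, 5.76 to 9.96), in 9.31% (8 to 10.8) of peaks of 750 to 999 bases and in 1.49% of narrower peaks. The widest was at MBOAT7, a phosphatidylinositol acyltransferase gene, and TSEN34, a tRNA splicing endonuclease gene, from 54189295 to 54191316 on chromosome 19, with 2022 bases and a fold of 12.6. Its PPARα peak spanned 1855 bases with a fold of 10. ARFRP1 and ZGPAT shared a peak of 1663 bases (fold 16.6) without PPARα. BST2, the gene of the virus-tethering protein tetherin, and MVB12A shared one of 1605 bases (11.4, PPARα 8.13), and ELL3 and SERF2 one of 1548 bases (13.9, PPARα 7.64). CBX3, a heterochromatin protein gene, and HNRNPA2B1, an RNA-binding protein gene, shared one of 1516 bases (14.3, PPARα 10.4). HDLBP and SEPTIN2 shared one of 1512 bases (15.3, PPARα 15.7). PPARα peaks overlapped 47 of the 51 (92.2%, 81.1 to 97.8), and 94.6% (90 to 97.5) of the divergent pairs in peaks of 750 to 999 bases, 76.1% of those in all narrower peaks and 77.3% of those in all peaks.

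The widest broad peak of all, with 2887 bases, lay on the short arm of chromosome 21 from 6369405 to 6372291, within the long noncoding RNA gene LOC102724701. Its summit was 74713 bases from any coding gene end, its fold was 8.58, and a PPARα peak of 2469 bases (fold 5.85) overlapped it. Each other peak among the 15 widest lay in or at a coding gene. ESRRA, the gene of the nuclear receptor estrogen-related receptor alpha, had 1865 bases with a fold of 18.2. PFN1, the gene of the actin-binding protein profilin, had a peak of 1949 bases (8.86) that also took in an annotated end of ENO3. The CYBA peak, at a subunit gene of the phagocyte NADPH oxidase, had 1844 bases (11.3), with the end of MVD nearest its summit. INAFM1 (1824 bases), ELF2, an ETS factor gene (1813), GAPDH, a glycolytic enzyme gene (1787), EGR1, an immediate early zinc finger gene (1773), CTDSP2 (1690) and U2AF2, a splicing factor gene (1678), held their start sites in the peak and overlapped PPARα. SSC5D (1795) and CXXC5 (1734) had no PPARα overlap, and CACNA2D4 (1717) and BAHCC1 (1693) had peaks inside the gene with PPARα folds of 5.42 and 4.41.

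By the authors' −log10 q the order was different. ESRRA led with 814, followed by SKIL, a SMAD corepressor gene (738, fold 19.0), JUND, an AP-1 subunit gene (701, 14.3), CASP9, the initiator caspase gene (682, 12.1), and KAT6B, a histone acetyltransferase gene (632, 17.1). MBOAT7 (577), STIP1, a chaperone adaptor gene (574), FKBP2 with LOC114841035 (567), DNAJB1, a heat shock cochaperone gene (560, fold 26.0), and DBP, a circadian output factor gene (546), completed the 10. Each of these 10 overlapped a PPARα peak, as did 83.6% of all broad peaks, with PPARα folds between 4.99 at JUND and 16.2 at KAT6B. ESRRA and MBOAT7 were the only genes among both these 10 peaks and the 15 widest.

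The map of 8 loci shows several arrangements. At MBOAT7 with TSEN34 and at SRCAP the PPARα peak runs nearly the length of the broad peak. At ESRRA, EGR1 and ICAM1 it covers the upstream side and stops near or before the start site. At CD38, a surface ectoenzyme gene, a broad peak of 1088 bases (fold 16) covers the start site and no PPARα peak lies within 2000 bases of its centre.

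**Figure D3:**
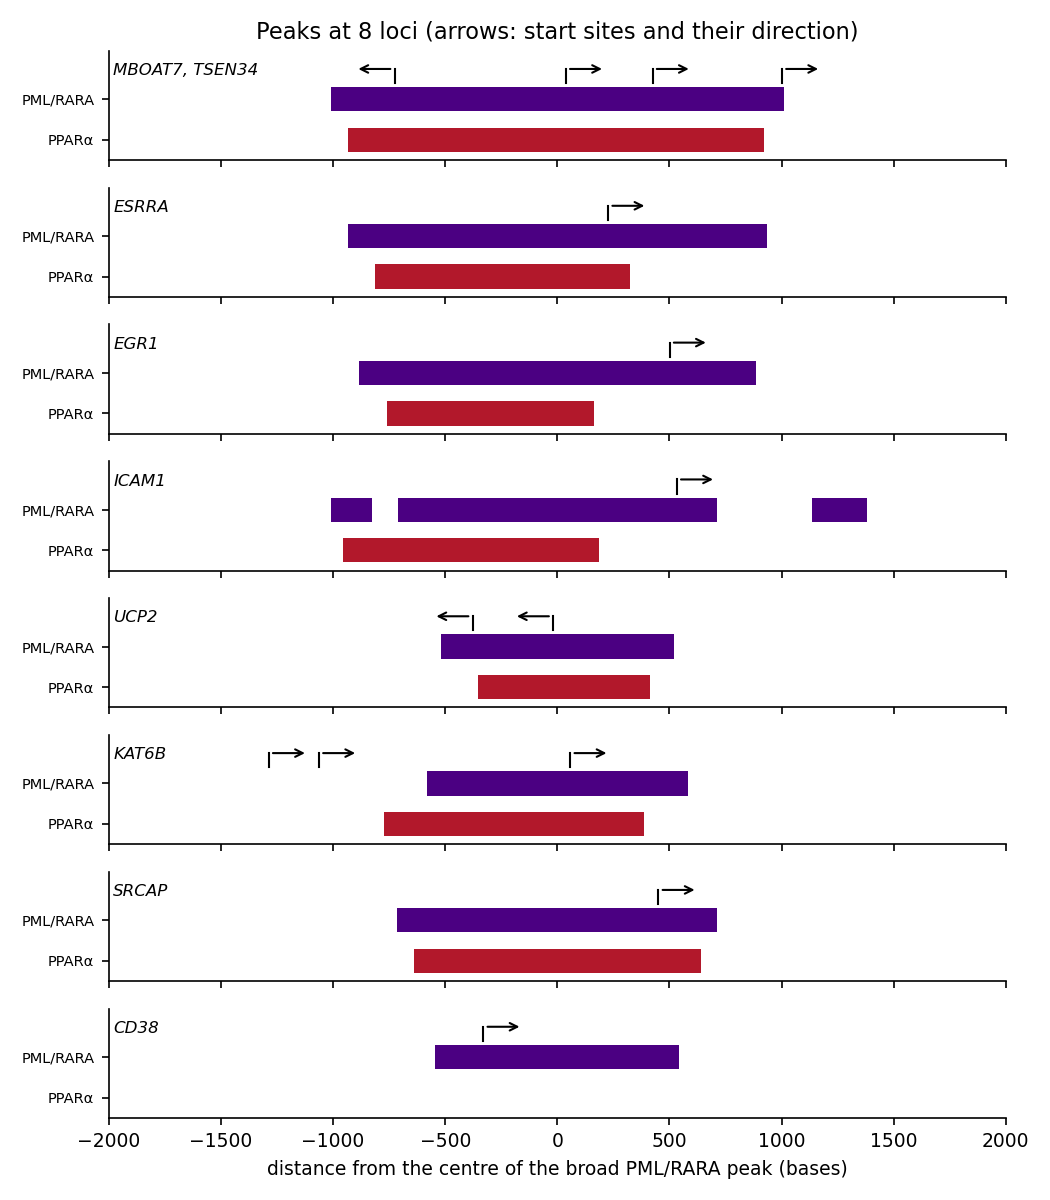
PML/RARA peaks and PPARα peaks at 8 loci, drawn to scale by distance from the centre of the broad PML/RARA peak (horizontal axis, bases); arrows are coding start sites and their direction. The PPARα bar spans 1855 of 2022 bases at MBOAT7 and TSEN34, covers the upstream side at EGR1 and ICAM1, and is missing at CD38.

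PPARα peaks lay on most broad peaks. At least 1 base was shared by 574 of 687 (83.6%, 80.6 to 86.2), where 21.3% of all PML/RARA peaks did so, 20.3% of narrower ones and 76.5% (74.5 to 78.4) of those of 750 to 999 bases. At the summit, a single base whatever the width, a PPARα peak was present for 455 broad peaks (66.2%, 62.6 to 69.8), against 16.1% of all PML/RARA peaks, 15.3% of narrower ones and 61.9% (59.6 to 64.1) of those of 750 to 999 bases. With summits required to lie within 200 bases of each other, the order turned, at 32.2% (28.7 to 35.8) of broad peaks, 40.3% (38.0 to 42.6) of those of 750 to 999 bases and 11.5% of narrower ones. Most of the contrast with narrower peaks in shared bases came from those under 500 bases. In these, 5.98% (under 250 bases) and 22.9% (250 to 499 bases) overlapped PPARα.

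Location moved with the overlap. PPARα overlapped 391 of the 442 broad peaks with a coding start site (88.5%, 85.1 to 91.3) and 162 of the 223 without one (72.6%, 66.3 to 78.4). Among peaks of 750 to 999 bases these shares were 84.6% and 63.5%, and among all narrower peaks 56.1% and 13.2%.

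Fold of the PML/RARA peak moved with the overlap too, and its part in the result was not tested. The fold ranges are wide, and peaks within one still differ in fold. In the highest quartile of fold (12.5 to 72.9), the PPARα peak covered the summit in 75.4% (71.1 to 79.4) of 439 broad peaks, in 71.9% (69.4 to 74.3) of those of 750 to 999 bases, in 59.2% (57.6 to 60.9) of those of 500 to 749 bases and in 41.1% (40.2 to 42.1) of all narrower ones. In the next quartile down (7.39 to 12.5) the shares were 51.9% (44.9 to 58.8), 41.9% (37.2 to 46.7), 29.6% (27.1 to 32.1) and 12.9% (12.3 to 13.5). For the summit, neighbouring intervals of the broad and next class overlapped in both quartiles. By at least 1 shared base they overlapped in the highest quartile, at 90.2% (87 to 92.8) and 85.8% (83.8 to 87.7). In the next quartile down they did not, at 74.3% (67.8 to 80.1) and 59% (54.2 to 63.7). Only 36 and 2 broad peaks fell in the second and lowest quartiles.

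**Figure D4:**
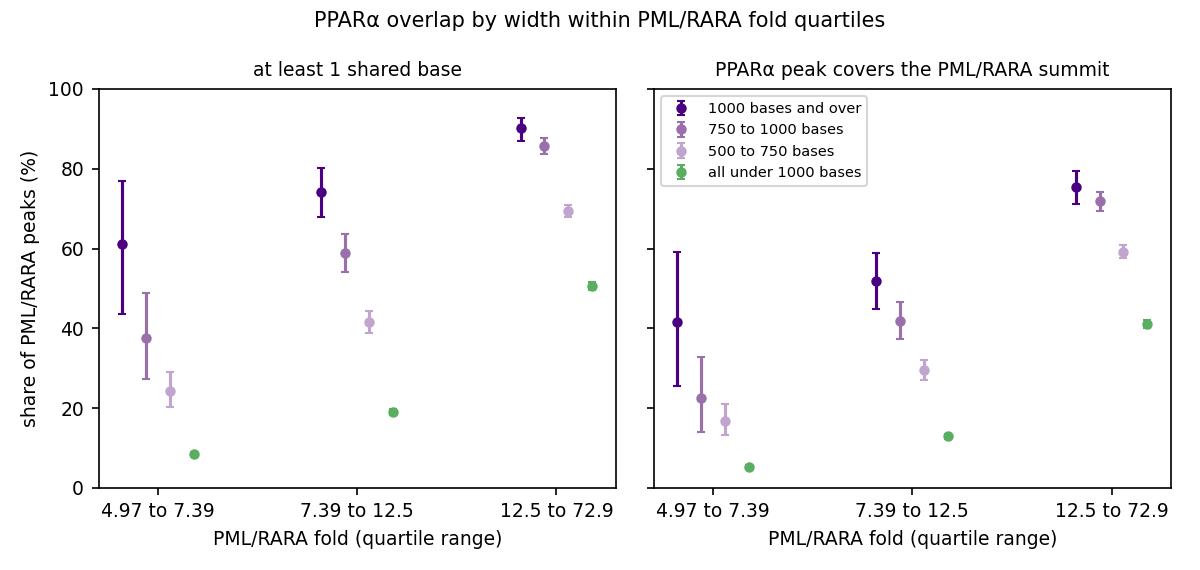
Share of PML/RARA peaks with PPARα (vertical axis, %) by at least 1 shared base (left) and at the summit (right), in 3 quartile ranges of PML/RARA fold (horizontal axis) and 4 width classes; bars are 95% Clopper-Pearson intervals over peaks. At the summit and in the highest fold range the points run from 75.4% for broad peaks to 41.1% for all peaks under 1000 bases; the lowest quartile, with 2 broad peaks, is left out.

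Where both were present, the PPARα peak filled much of the broad peak, yet its summit was displaced. PPARα covered a median of 69.1% of the broad peak (quartiles 50.2 and 81.7), at least 90% in 66 of the 574 and at least 50% in 433. The summits stood a median of 236 bases apart (152 and 358), against 193 bases for peaks of 750 to 999 bases and 178 for all narrower peaks. Wider peaks leave more room between summits, so these distances are partly set by width. The summits were over 500 bases apart in 69 broad peaks. The best PPARα peak lay wholly inside the broad peak in 394 cases. The PPARα peaks concerned were wide themselves, with a median of 834 bases against 667 and 530 in those comparison classes. Their median PPARα fold was 7.75, against 7.92 and 6.49. Among the PPARα peaks of at least 1000 bases, 162 of 535 (30.3%) touched a broad PML/RARA peak. Over all PPARα peaks on chromosomes 1 to 22 the share was 6.03% (577 of 9573), and longer peaks meet more peaks by length. A PPARα peak of at least 1000 bases touched 23.6% of the broad peaks. The broad peaks at GABPB1, KLHL24 and HP1BP3 each held 2 PPARα peaks.

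The highest PPARα fold on a broad peak (17.6) lay between genes on chromosome 1, from 16904739 to 16906012, 8430 bases from an end of CROCC. KAT6B (16.2) and RBM15 (16.1), a gene of the RNA methylation machinery, came next. HDLBP with SEPTIN2 (15.7), SDR42E2 (15.7), TMBIM6, a gene of an endoplasmic reticulum cell death inhibitor (15.5), RALY (15.4), VMAC (15.3), GGPS1 with ARID4B (15.3) and HNRNPK with RMI1 (15) followed. PML/RARA folds at these 10 ran from 14.6 to 20.7.

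Broad peaks without PPARα numbered 113. A start site lay in 45.5% (36.1 to 55.2) of the 112 outside chromosome 8, against 70.7% (66.7 to 74.5) of 553 with PPARα. Inside coding genes were 42 of the 113 (37.2%) and 110 of the 574 (19.2%). Their median width was the same, at 1134 bases, while their median fold was 10.8 against 14.7. The widest lay inside SSC5D, at an internal start site of CXXC5, and at ARFRP1 with ZGPAT. Next were peaks inside TYK2, a Janus kinase gene (1662 bases, fold 8.51), and AHRR, the aryl hydrocarbon receptor repressor gene (1654, 7.5). PNPLA2, the gene of the main triglyceride lipase of lipid droplets (1565, 9.88), PDE6B (1553, 9.98), TOR1A (1437, 15), LAMC1, a laminin subunit gene (1414, 13.7), and VPS9D1 with ZNF276 (1414, 13.9) followed.

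Away from gene ends, though in part inside genes, 112 broad peaks (16.3%, 13.6 to 19.3) had a summit over 10 kb from any coding gene end, against 45.5% of narrower peaks. PPARα overlapped 85 of them (75.9%, 66.9 to 83.5) and covered the summit of 63 (56.2%, 46.6 to 65.6), where the summit share was 53.0% (47.2 to 58.7) in peaks of 750 to 999 bases and 9.25% in all narrower ones. After the peak on chromosome 21, the widest were inside BAHCC1 and AHRR. One of 1577 bases lay at RNVU1-6, a variant U1 small nuclear RNA gene on chromosome 1. At an internal start site of ING5, a chromatin reader gene, a peak of 1541 bases had a fold of 11.1. Others lay inside PDE6B, SSBP4, CRAMP1 and LIMK1 and beyond KIAA2013. Of the 107 outside chromosome 8, 20 held a coding start site, so distance from gene ends did not mean distance from every start.

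Broad peaks marked few genes, and the gene groups of this biology held only a handful each. Over all 19126 coding genes on chromosomes 1 to 22, 634 (3.31%) had a broad peak within 1 kb of an end, and 11255 had any PML/RARA peak there. The gene groups were chosen with earlier results of these data known, and their counts are descriptive. Any PML/RARA peak lay at 58.8% of all coding genes. It lay at 85.1% of myeloid regulators, 89.2% of nuclear receptor cofactors and 89.4% of immediate signalling and cell cycle genes. It also lay at 74.3% of retinoic acid response genes, 68.2% of genes of PPARα and fatty acid catabolism and 74.4% of triglyceride and lipoprotein genes. For cell type markers it lay at 28 of 42 granule and promyelocyte genes (66.7%, near that share), 10 of 26 lymphoid genes, 3 of 20 erythroid and megakaryocyte genes and 8 of 28 genes of liver, muscle and neuron.

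Among myeloid regulators, 4 of 47 (8.51%) had a broad peak at an end. These were EGR1 (1773 bases, PPARα fold 11), ELF1, an ETS factor gene (1213, PPARα 6.49), JUND and LYL1, a basic helix-loop-helix factor gene (1154, fold 7.44, no PPARα overlap). The master regulators SPI1, CEBPA, CEBPB, CEBPE, RUNX1 and MYC, in the same group, were not among them. At the 3.31% of all coding genes, so few genes would mostly hold none, so their absence is near the background. Some PML/RARA peak, of any width, lay at an end of 40 of the 47. Of granule and promyelocyte genes, 2 of 42 (4.76%, near the 3.31% of all coding genes) had a broad peak at an end, CYBA and CD38. A further broad peak lay inside ITGB2, the leukocyte integrin beta chain gene (1054 bases, fold 14.9, PPARα 4.90).

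Of 35 retinoic acid response genes, 1 (2.86%, near the 3.31% of all coding genes) had broad peaks at its ends. ICAM1, a leukocyte adhesion molecule gene, had one of 1424 bases over its start (10269875 to 10271298 on chromosome 19, fold 16.2, PPARα 6.95) and one of 1040 bases at its finish, where ICAM4 starts (7.04, PPARα 6.43). Of genes of PPARα and fatty acid catabolism, 2 of 44 (4.55%, also near that 3.31%) had one. These were ACSL1, an acyl-CoA synthetase gene (1240 bases, fold 12.4, PPARα 4.13), and UCP2, a mitochondrial carrier gene (1039, 17.5, PPARα 13). Of triglyceride and lipoprotein genes, 3 of 43 (6.98%) had one. They were PNPLA2, NR1H3, the liver X receptor alpha gene (1298 bases, 16.3, PPARα 8.51, where a start site of MADD lay in the peak), and AGPAT2, the gene of an enzyme that makes phosphatidic acid (1159, 15.3, PPARα 4.69).

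Nuclear receptor cofactors had a broad peak at an end in 4 of 37 (10.8%). Of these SKIL (1249 bases, fold 19.0, PPARα 5.04) and HDAC7, a class II histone deacetylase gene (1123, 12.8, PPARα 5.70), overlapped PPARα. CTBP1, a corepressor gene (1246, 8.50), did not. Broad peaks further inside the gene lay at SKI (1213 bases, 21.1) and KAT6B. Immediate signalling and cell cycle genes gave 4 of 47 (8.51%). These were NFKBIA, the NF-kappa-B inhibitor gene (1211 bases, PPARα 5.42), CCND2, the cyclin D2 gene (1127, 8.83), MDM2, the p53 ligase gene (1117, 7.05), and SOCS1, a cytokine signalling inhibitor gene (1095, 7.44). All 4 overlapped PPARα, where 83.6% of all broad peaks did so.

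Replication-dependent histone genes, which supply chromatin in S phase, held the highest share of the groups, 9 of 50 (18%). The broad peak at each of the 9 overlapped PPARα, where 83.6% of all broad peaks did so. The 9 genes rested on only 5 peaks, since these short genes lie close together. H2AC6 and H2BC4 shared the widest (1365 bases, fold 12.2, PPARα 8.25), H1-2 had one of 1195 bases, and H2AC20 with H2BC21, H1-4 with H2BC5, and H1-5 with H2AC16 shared the others. Any PML/RARA peak lay at 43 of the 50. Ribosomal protein genes carried some PML/RARA peak at 52 of 52 and a broad one at 2 (3.85%, near the 3.31% of all coding genes), RPLP1 (1047 bases, 18) and RPL15 (1043, 18.5). No gene of the lymphoid group (0 of 26), the erythroid and megakaryocyte group (0 of 20) or the liver, muscle and neuron group (0 of 28) had a broad peak at an end. At the 3.31% of all coding genes, a group of this size would hold about 1 gene or none, so a count of 0 is near the background. A broad peak of 1260 bases lay inside EPOR, the erythropoietin receptor gene, with a fold of 15.2 and a PPARα fold of 13.5.

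Chromosome 19 held the most broad peaks, 79, or 5.44 per 100 coding genes. Chromosomes 15 (5.19), 16 (5.15) and 17 (5.13) were close behind. Chromosomes 22 (1.55) and 18 (1.85) were lowest, and the value over chromosomes 1 to 22 was 3.59. Chromosome 22 held 1191 PML/RARA peaks in all, of which 7 were broad (0.588%), while chromosome 19 held 3768, of which 2.10% were.

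**Figure D5:**
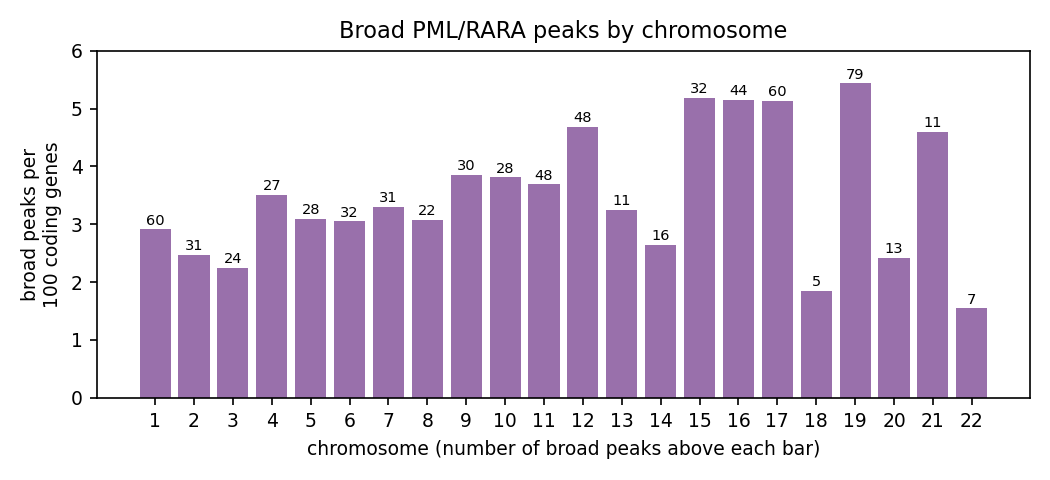
Broad PML/RARA peaks per 100 protein-coding genes (vertical axis) on chromosomes 1 to 22 (horizontal axis), with the number of peaks above each bar. Chromosome 19 stands highest at 5.44 and chromosome 22 lowest at 1.55.

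Promoters in broad peaks were rich in CG dinucleotides, as were promoters in other PML/RARA peaks. A promoter window here runs from 250 bases before to 50 after a start site. Of 21041 such windows of coding genes, 545, of 440 genes, lay wholly in a broad peak. Their median GC content was 69.3% and their median number of CG dinucleotides 30.0 (quartiles 24.0 and 38.0). Windows wholly in peaks of 750 to 999 bases had 31.0 and in peaks under 750 bases 30.0, where windows without any PML/RARA peak had 8 and all windows 21. In 299 of the 545, a PPARα peak covered all 250 upstream bases, in 150 some of them and in 96 none.

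For most motifs the share in broad peaks was close to that of promoters in other PML/RARA peaks. Each motif was searched on both strands, and a match is a description, not a binding site. The GC box GGGCGG was in 83.7% (80.3 to 86.7) of windows in broad peaks, 81.1% of those in peaks of 750 to 999 bases, 38.0% of those without a peak and 56.6% of all. TATAAA was in 4.40% (2.84 to 6.48), against 14.6% without a peak and 9.54% of all. In peaks of 750 to 999 bases and under 750 bases it was in 3.7% and 2.85%. CACGTG was in 12.1%, against 9.95% and 12.3% in those classes and 8.22% of all. ATTGG was in 36.5%, against 38.8%, 42% and 34.4% in the same order. The NRF1 palindrome was in 2.75%, against 2.14%, 2.94% and 1.48%. The half-site AGGTCA was in 9.36% (7.05 to 12.1), against 8.39%, 8.67% and 11.8%. GGGTCA was in 14.5% (11.6 to 17.7), against 13.8%, 14% and 14.1%. Of half-sites in direct repeat, a single window, that of SRCAP, had 1 base between them, and 0 of 545 had 2 or 5 bases between them (each interval up to 0.675%). Over all windows the repeats with 1, 2 and 5 bases were in 0.0903%, 0.0190% and 0.0190%.

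The ETS-type motif CCGGAAG was in 16.5% (13.5 to 19.9) of windows in broad peaks, in 23.8% (21.5 to 26.3) of those in peaks of 750 to 999 bases, in 25.3% (23.8 to 26.9) of those in peaks under 750 bases, in 4.57% of those without a peak and in 12.9% of all. The interval for broad peaks lies below both others, but windows of a gene can overlap and the difference was not tested.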

How the data were processed

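CUT&Tag libraries of NB4 cells were analysed from the 2 deposited peak lists, 1 for PML/RARA and 1 for PPARα. The submitters' processing notes list the build hg38 and the tools MACS 1.4.2, bedtools, SAMtools and Bowtie2 2.2.9, giving no role to any; the narrowPeak layout belongs to newer MACS releases than the one listed, and which release called the peaks is unknown. Per the file layout, each deposited peak has a fold enrichment (a linear ratio) and a −log10 q from the authors' caller; the smallest −log10 q is 1.30 in the PML/RARA list. Control, duplicate and masking steps are not given in the sources used here.

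Members were PML/RARA peaks of at least 1000 bases on chromosomes 1 to 22; members and gene lists were chosen with earlier results of these data known. Overlap meant at least 1 shared base. Genes and start sites came from RefSeq tables of GRCh38.p14 (the hg38 assembly); no exon structure was used, so exons, introns and UTRs were not separated. Of 482 listed gene entries, 471 matched a coding gene on these chromosomes. Shares carry 95% Clopper-Pearson intervals, computed with SciPy 1.17.1 in Python 3.11.15; no test was run. Interval code was tested on simulated data. Peaks named were the 15 widest, the 10 of highest −log10 q, the 10 of highest PPARα fold, the 10 widest without PPARα, the 10 widest over 10 kb from gene ends, the 5 on each side of 1000 bases, genes with 2 or more broad peaks, and up to 8 members per gene list. Alternatives changed the width minimum, overlap rule, PPARα strictness and gene window. The 8 sequences were chosen after the values were seen. Some single-gene results are not reported here.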

Additional observations from a re-analysis of the deposited data

How the results depend on the processing

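The number of broad peaks depended on the width minimum, at 1981 for 800 bases and 47 for 1500 bases, and was 700 with chromosome X. The PPARα overlap share of 83.6% stayed within its interval when at least 50% of the PPARα peak had to be shared (81.8%) and at 800 (80.9%) and 1500 bases (85.1%). It was 32.2% when summits had to lie within 200 bases, 68.7% for PPARα peaks with −log10 q of at least 5 and 72.8% for PPARα fold of at least 5. Within quartiles of PML/RARA fold it was 0 (of 2 peaks), 61.1%, 74.3% and 90.2%. The summit share of 66.2% was 59.0% with the stricter q, 60.7% with the stricter fold and 68.1% at 1500 bases. The gene-end share of 66.8% was 53.6% with windows of 500 bases, 77.6% with 5000 bases, 71.8% for any base of the peak and 61.7% at 1500 bases. Genes with a broad peak numbered 790 with 5 kb windows and 762 with gene bodies included, against 634, and 18 such recounts of the gene groups with a broad peak stayed within 1.5 times the count reported. Of the 3 groups at 0, the erythroid and megakaryocyte group held 1 in both recounts and the others stayed at 0. No paired analysis was possible because each antibody has 1 list. Read depth is unknown, so how far depth sets peak width and overlap was not tested.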

Other observations

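Small RNA genes overlapped a number of broad peaks, counted by at least 1 shared base. Transfer RNA genes, transcribed by RNA polymerase III, overlapped 10 broad peaks (1.46% of 687, 0.700 to 2.66). The share was 1.20% (0.753 to 1.81, an overlapping interval) in peaks of 750 to 999 bases and 0.324% in all narrower peaks. Of the 18 tRNA genes concerned, 16 lay wholly inside a broad peak. A peak of 1620 bases inside KCTD2 on chromosome 17 held 3 arginine tRNA genes, TRR-CCT1-1, TRR-CCT2-1 and TRR-TCG3-1, with a fold of 13 and a PPARα fold of 10.7. One of 1430 bases near CTC1 on the same chromosome held TRD-GTC2-11 and TRP-CGG1-3, with a fold of 7.63 and a PPARα fold of 5.73. Each of the 10 overlapped a PPARα peak, where 83.6% of all broad peaks did so. Small nuclear RNA genes, whose products form the spliceosome, overlapped 8 broad peaks (1.16%, 0.504 to 2.28). The share was 0.218% (0.0595 to 0.557, an overlapping interval) in peaks of 750 to 999 bases and 0.0608% in narrower ones. Of the 8 genes, 2 lay wholly inside a broad peak. Those only partly inside included RNU2-2 at WDR74 (1629 bases, fold 9.89, PPARα 7.58), RNU4-2 at SIRT4 (1181, 10.3, PPARα 6.09) and RNU5B-1 (1011, 14.1, PPARα 9.73). The labels do not say how reads were placed among near-identical copies of tRNA and U1 or U2 genes, and longer peaks meet more genes by their length alone. MicroRNA genes overlapped 11 broad peaks (1.60%, 0.802 to 2.85), against 0.818% (0.458 to 1.35) of peaks of 750 to 999 bases, an overlapping interval, and 0.209% of narrower ones. Of the 12 microRNA genes, 9 lay wholly inside. Among the 12 were MIRLET7I, a let-7 gene, partly in a peak of 1053 bases (fold 11.1, PPARα 7.35), and MIR4674 at the start of NOTCH1 (1040, 17.1, PPARα 5.84). These genes were chosen after their values were seen.

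A broad peak lay at or within 17 genes more than once, with 2 in each. At CXXC5, a gene induced by retinoic acid in myeloid cells, both (1734 and 1125 bases) lacked PPARα. At GSE1 (1019 and 1087 bases) both lacked it as well. At NR2F6, an orphan nuclear receptor gene (1295 and 1238 bases), and at CARS2 (1259 and 1241), a mitochondrial tRNA synthetase gene, both overlapped PPARα. At THAP4, DUSP22, KCNQ1, UNKL and RAVER1 a single one did. At SIRT4 the 2 peaks stood 166 bases apart, and TRIM41 had 2 peaks 428 bases apart.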
